A study of Homo sapiens with 4 samples.

Results

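HuR, encoded by ELAVL1, and 8 other genes for proteins that bind AU-rich elements were examined, namely ZFP36, ZFP36L1, ZFP36L2, HNRNPD, KHSRP, TIA1, TIAL1 and CELF1. They were taken by gene symbol from the deposited table, with every transcript type kept. All 9 were listed, with 36 transcripts of the 43596 in the table, which belong to 15113 gene symbols. The cells were MDA-MB-231, a human line established from a triple-negative breast cancer. They received either DMSO, in which the compound is dissolved, or 10 µM KH-3, a small molecule reported to block the binding of HuR to mRNA, for 24 h, and 2 mRNA libraries were sequenced from each condition. Nothing in the labels shows whether these came from separate cultures, but the methods name them biological replicates. The only abundance that the table holds is a mean normalized read count per transcript, which the authors averaged over their libraries. Which libraries enter this value is not stated, so treated and control cells are taken as pooled in it. It is read as how much of each transcript these cells held across the experiment. It carries no error, the sequencing depth is unknown, and neither a difference between KH-3 and DMSO nor a spread between replicates can be given from it. The effect of KH-3 is not analysed here.

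AU-rich elements are stretches of A and U in the 3′UTR of many short-lived mRNAs, often built on the pentamer AUUUA. Proteins that bind them decide together whether such an mRNA is kept, translated or degraded. HuR protects its targets, whereas the ZFP36 family and KHSRP bring in the enzymes that shorten the poly(A) tail and degrade the RNA. TIA1 and TIAL1 hold back translation, HNRNPD acts in either direction, and CELF1 prefers elements rich in G and U. Several of these proteins can also bind the mRNAs of their own family, so the 3′UTRs of the 9 genes are shown first.

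The heptamer UAUUUAU, a core of strong AU-rich elements, occurred 5 times in the 3′UTR of ELAVL1 and 3 times in each of ZFP36, ZFP36L1 and ZFP36L2. TIA1, TIAL1 and CELF1 had it 1 time each, and HNRNPD and KHSRP had 0 copies. Each 3′UTR was that of the listed coding transcript with the highest read count that has one in GENCODE release 44, on hg38. With the transcript of highest level per length instead, an alternative added after the data were seen, ELAVL1 is given by the short ELAVL1-002 with 0 copies of UAUUUAU, and the UAUUUAU counts of the other 8 genes are the same. The sites below are shown 5′ to 3′ with 10 bases on each side and the heptamer in capitals. UAUUUAU is the type of element that the ZFP36 proteins bind, and it is not the preferred element of every protein encoded here.
ELAVL1: uauuuauaccUAUUUAUguauuuauuu
ZFP36, first site: augggcccuuUAUUUAUgacgacuuua
ZFP36, last site: gauuuuauagUAUUUAUauauauuggg
ZFP36L1, first site: uaucaaaacgUAUUUAUugccaaacua
ZFP36L1, last site: acuguuggauUAUUUAUuuuagaaauu
ZFP36L2, first site: cuauuuaacuUAUUUAUuaucuuguga
ZFP36L2, last site: uuguauguaaUAUUUAUuucauuaauu
TIA1: agauacaaugUAUUUAUuuaaaagauu
TIAL1: aaaaugaaaaUAUUUAUuuuaaaaauu
CELF1: ggguggagaaUAUUUAUuaccuaaauu

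The ELAVL1 site lies at chr19:7961841-7961867 on the minus strand, the middle of its 5. These 5 copies overlap or follow each other within 41 bases, from base 1604 to base 1644 of a 3′UTR of 4910 bases. In ZFP36 the copies also stood close together, within 47 bases from base 493 of a 3′UTR of 713 bases, and the sites shown lie at chr19:39409182-39409208 and chr19:39409222-39409248 on the plus strand. In ZFP36L1 the 3 copies were spread over 266 bases, with the sites shown at chr14:68788337-68788363 and chr14:68788078-68788104 on the minus strand. In ZFP36L2 they were spread over 243 bases, with the sites shown at chr2:43223449-43223475 and chr2:43223213-43223239 on the minus strand. The single sites lie at chr2:70212591-70212617 in TIA1, chr10:119575556-119575582 in TIAL1 and chr11:47470163-47470189 in CELF1, all on the minus strand. The TIA1 and TIAL1 sites stand near the start of the 3′UTR, at bases 112 and 93, and that of CELF1 stands at base 1963. A match of letters describes the sequence and is not evidence of binding.

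Long 3′UTRs hold a heptamer more often by their length alone, so each gene was set beside genes whose 3′UTR was within 20% of its length. Across all 11904 genes with a 3′UTR, 35.1% held UAUUUAU at least 1 time. Among 960 genes of like length to ELAVL1, 71.0% held it, with a median of 1 copy, and the 5 copies of ELAVL1 stood at percentile 97.9 with ties split evenly. For ZFP36 the share among 1231 genes was 21.7% and its 3 copies stood at percentile 99.2. ZFP36L1 and ZFP36L2 stood at percentiles 97.2 and 97.1, where 40.4% and 40.9% of the genes of like length held the heptamer. TIA1, TIAL1 and CELF1, with 1 copy each, stood at percentiles 63.6, 51.5 and 40.3. ELAVL1 and the 3 ZFP36 genes thus lay above the 95th percentile of like genes and the other 5 did not. For ELAVL1 this holds for ELAVL1-001 and not for ELAVL1-002, which stood at percentile 44.4 of 922 genes of like length. These places describe 9 chosen genes and were not tested.

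**Figure D1:**
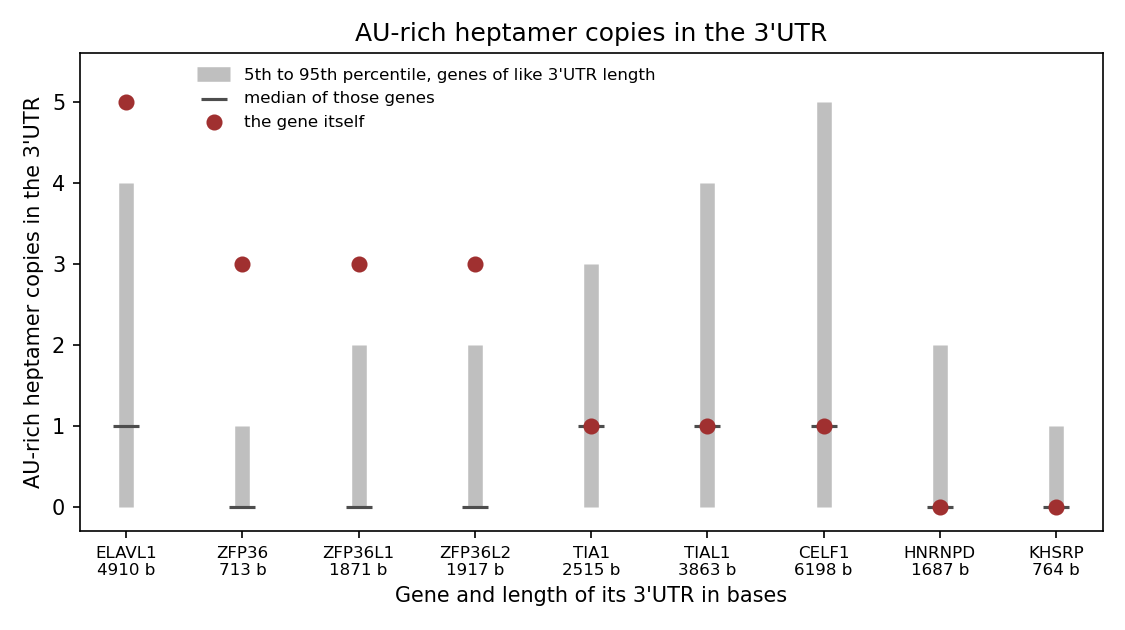
Copies of UAUUUAU in the 3′UTR of each gene (red points), with the length of the 3′UTR in bases under each name; grey bars run from the 5th to the 95th percentile of genes of like length and black dashes mark their median. ELAVL1 with 5 copies and ZFP36, ZFP36L1 and ZFP36L2 with 3 each stand above their bars, and the other genes stand within theirs.

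The shorter pentamer AUUUA, which is contained in each heptamer, separated the genes less. It was present in 72.7% of all 3′UTRs and in 8 of the 9 genes, with 13 copies in ELAVL1, 11 in TIA1, 10 in CELF1, 8 in ZFP36L1, 7 in TIAL1, 5 each in ZFP36 and ZFP36L2, and 2 in HNRNPD. KHSRP had 0 copies in its 764 bases, where 67.9% of genes of like length had at least 1. Against like lengths the highest places were those of ZFP36, at percentile 95.9, TIA1, at 89.8, and ZFP36L1, at 86.9, while ELAVL1 stood at 63.2. The number of copies per kb ranged from 0 in KHSRP to 7.01 in ZFP36, with 2.65 in ELAVL1. The share of A and U was not high in ELAVL1, at 56.1% against a median of 60.1% for genes of like length, so its heptamers form a local cluster in a 3′UTR that is otherwise less AU-rich. HNRNPD and TIA1 had the highest shares, 67.0% and 67.5%.

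A summed read count and a level per length were used, and each is named where it appears. The summed read count of a gene is the sum of the authors' mean normalized read counts over its listed transcripts. The level per length divides each transcript's read count by its length in kb before summing, so that genes and transcripts of different length can be set side by side. By this level, 8 of the 9 genes lay above the median gene, which had 108 reads per kb, and 3 lay in the top 10% of genes. KHSRP, a KH-domain protein that recruits decay enzymes, was highest with a level per length of 2845 reads per kb, at percentile 98.2 of all genes. ELAVL1 followed with 966 and HNRNPD with 875 reads per kb, at percentiles 92.0 and 91.1. With the leading transcript alone, for HNRNPD a retained intron transcript, they had 219 and 210 reads per kb. ZFP36L1, with 373, stood above both. ZFP36L1 had 501, TIA1 310, CELF1 254, TIAL1 171 and ZFP36L2 151 reads per kb. ZFP36 was lowest with 80.9 reads per kb and was below the median gene. Among the 12120 genes with a listed coding transcript the median was 157, and 7 of the 9 lay above it, with ZFP36L2 also below. The count was also 7 with coding transcripts alone. KHSRP was 35.2 times ZFP36 by level per length and 30.0 times by summed read count, but 10.9 times by level per length with the leading transcript alone. Between neighbours in the order the fold ran from 1.10, for ELAVL1 over HNRNPD, to 2.94, for KHSRP over ELAVL1. Without values per library no neighbouring pair can be said to differ beyond replicate error.

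**Figure D2:**
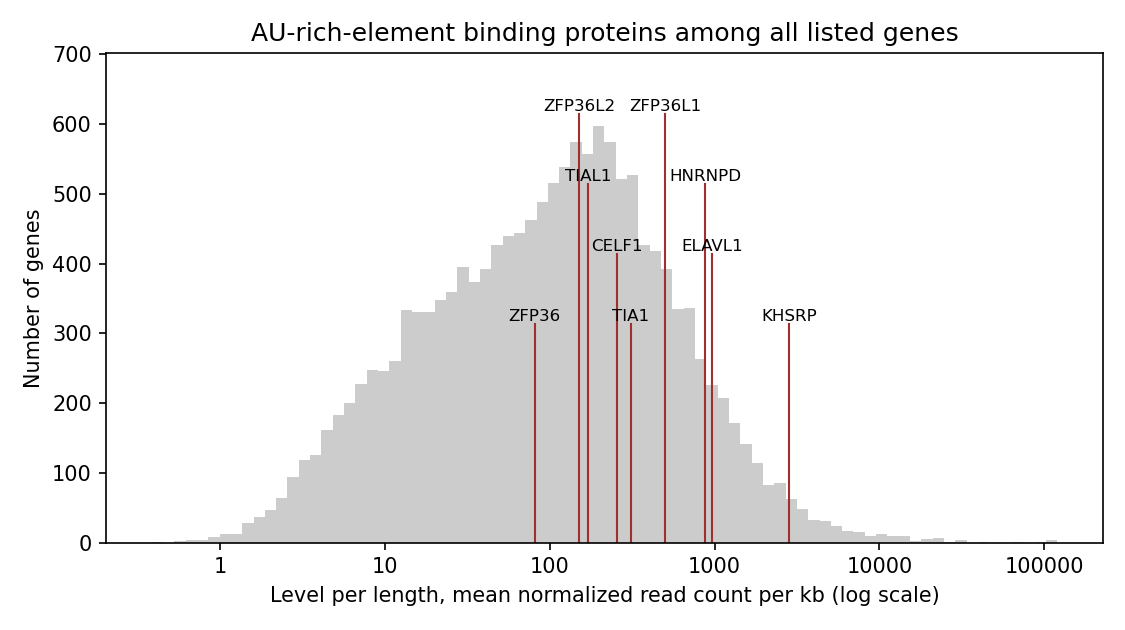
Number of genes by level per length, in mean normalized reads per kb on a log scale (grey), with a red line for each AU-rich-element binding protein, whose height only separates the names. KHSRP, ELAVL1 and HNRNPD lie in the upper tail and ZFP36, at 80.9 reads per kb, lies below the median of 108.

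HuR was the only listed member of its family. The gene occupies bases 7958573 to 8005659 of chromosome 19 (hg38, minus strand), and its neuronal relatives ELAVL2, ELAVL3 and ELAVL4 had no row in the table. Its 2 listed transcripts are both protein-coding and share the same coding sequence of 326 codons in GENCODE release 44. They differ in the 5′UTR and in the 3′UTR. ELAVL1-001 (ENST00000407627.6), of 6015 bases, had a mean normalized read count of 1316, and ELAVL1-002 (ENST00000596459.5), of 1473 bases, had 1101. By read count they were close, with 54.4% and 45.6% of the gene. By level per length the short transcript was 3.42 times the long one, at 748 against 219 reads per kb. The 3′UTR of ELAVL1-002 has 324 bases and ends before the cluster, so it holds 0 copies of UAUUUAU and 0 of AUUUA, whereas ELAVL1-001 holds 5 and 13. By level per length, 77.4% of the ELAVL1 signal was therefore assigned to the transcript without the AU-rich cluster. In release 44, 10.3% of the bases of ELAVL1-002, 152 bases, are not shared with ELAVL1-001, against 78.2% of the bases of ELAVL1-001, 4733 bases, that are its own. The 152 bases lie in the 5′UTR, since the coding sequence and the 324 bases of 3′UTR are shared with ELAVL1-001. The 77.4% is therefore an estimate and not a measured 3′ end.

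The 3 ZFP36 genes encode zinc finger proteins that bind UAUUUAU-type elements and recruit the deadenylase complex, and they were present at unequal levels. ZFP36L1, on chromosome 14 from 68787660 to 68796253, was 6.19 times ZFP36 and 3.32 times ZFP36L2 by level per length. The sum of the 3 was 733 reads per kb, and ELAVL1 was 1.32 times this sum. By summed read count it was 1.06 times, and with the leading transcript of each gene alone the direction turned, to 0.377 times. ZFP36, which encodes tristetraprolin and is known as an immediate early gene, lies on chromosome 19 from 39406847 to 39409412 and had 2 coding transcripts with mean normalized read counts of 94.4 and 45.3. ZFP36L1-001 had 1189, which was 75.1% of its gene, ZFP36L1-003 had 372 and ZFP36L1-002 had 23.4. ZFP36L2, on chromosome 2 from 43222402 to 43226606, had 1 transcript with a read count of 558. None of the 3 genes had a listed transcript of a non-coding type.

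KHSRP lies on chromosome 19 from 6413102 to 6424811 and had the most reads of the 9 genes, with a summed read count of 4195 over 7 transcripts. KHSRP-201 had a mean normalized read count of 1345 and KHSRP-001 had 1198, so the longest 2 models, of 2226 and 2993 bases, held 32.1% and 28.6% of the gene. KHSRP-008, KHSRP-005 and KHSRP-007, models of under 1 kb, had read counts of 589, 553 and 440 and nearly equal levels per length of 590, 578 and 591 reads per kb, close to the 604 of KHSRP-201. The first and second of these are annotated as coding models without their 5′ part, and the third as a retained intron of which 10 of 745 bases lie outside coding exons. The other 2 had 9.12 to 60.8. Its level per length is therefore the sum of several overlapping models. With KHSRP-201 alone it was 604 reads per kb, which still left KHSRP first of the 9 when each gene was given by its leading transcript.

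Its relatives FUBP1 and FUBP3, which also carry KH domains, had levels per length of 971 and 680 reads per kb. By level per length KHSRP was 2.93 times FUBP1 and 4.19 times FUBP3, and by summed read count 2.07 and 2.67 times. With the leading transcript alone the folds were smaller, though KHSRP stayed higher. KHSRP-201 had 604 reads per kb, while FUBP1-002 held 52.1% of the 971 and FUBP3-002 held 68.1% of the 680.

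HNRNPD, also known as AUF1, was led by a transcript that does not encode its protein. HNRNPD-006 (ENST00000514325.1), annotated as a retained intron, had a mean normalized read count of 967, which was 43.0% of the gene. The coding transcripts HNRNPD-001, HNRNPD-002 and HNRNPD-003 had 535, 492 and 168, and HNRNPD-005, annotated for nonsense-mediated decay, had 84.8. Among the genes with a listed coding transcript, 4.59% were led by a retained intron. HNRNPD-006 covers introns 4, 6, 7 and 8 of HNRNPD-001 in full, and 79.0% of its 4597 bases lie outside the exons of the coding transcripts, so most of its sequence is not shared with them. By level per length it stood second, with 210 reads per kb against 310 for HNRNPD-002, and the non-coding share of the gene was 32.9% by this level against 46.8% by read count. The gene lies on chromosome 4 from 82352498 to 82374503.

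The coding transcripts of HNRNPD differ by a pair of cassette exons that set the isoforms of the protein. Exon 2, at chr4:82371528-82371584, has 57 bases and exon 7, at chr4:82356537-82356683, has 147, so each adds whole codons, 19 and 49. HNRNPD-001 has both and encodes 355 residues, HNRNPD-002 lacks exon 7 and HNRNPD-003 lacks exon 2. By level per length the transcript without exon 7 was highest, at 310 reads per kb, followed by that with both exons, at 176, and that without exon 2, at 101. By read count the transcript with both exons was highest of these, with 535 against 492 and 168. HNRNPD-002 and HNRNPD-003 have 0 bases outside the other listed transcripts of the gene, so their read counts are estimates. No coding transcript without both exons was listed. HNRNPD-002 and HNRNPD-003 have 3′UTRs of 356 and 351 bases with 0 copies of AUUUA, and HNRNPD-001 has 1687 bases with 2. The related HNRNPDL and HNRNPAB had levels per length of 525 and 356 reads per kb, below the 875 of HNRNPD. By summed read count HNRNPD was 1.62 times HNRNPDL and 3.68 times HNRNPAB. With the leading transcript by read count alone the direction turned, but for HNRNPD this is the retained intron HNRNPD-006, with 210 reads per kb. HNRNPDL-004 held 58.5% of the 525 and HNRNPAB-001 held 78.6% of the 356. The coding HNRNPD-002 had 310 reads per kb. With coding transcripts alone HNRNPD had 587 reads per kb, and the non-coding shares by level per length were 5.12% in HNRNPDL and 5.39% in HNRNPAB.

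**Figure D3:**
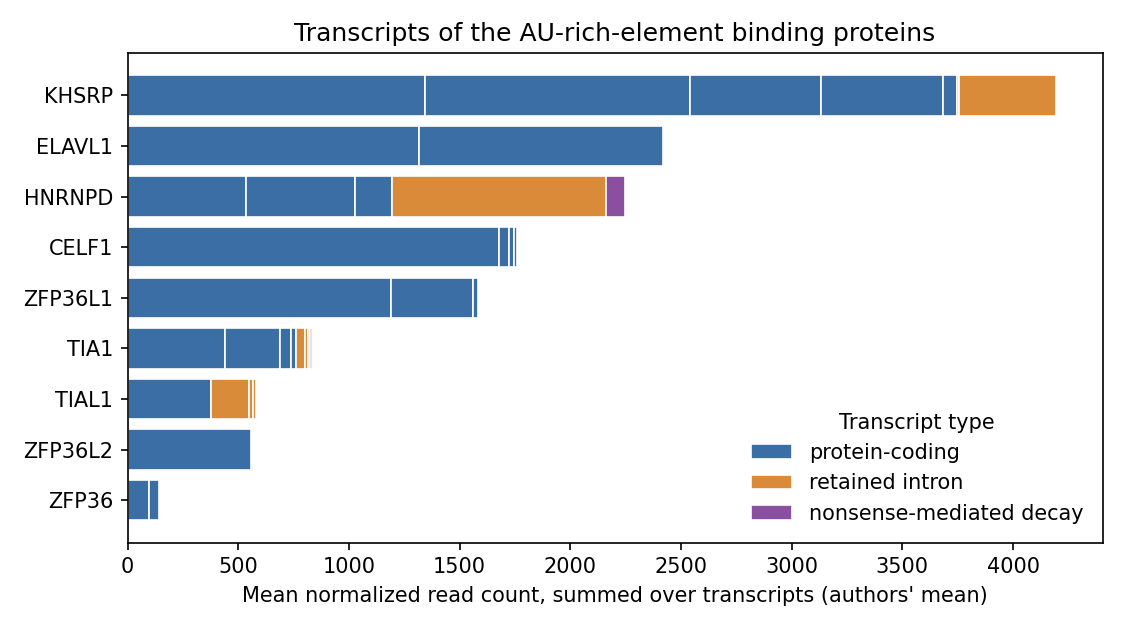
Mean normalized read count of each listed transcript, stacked for each gene, with colours for the transcript type; each segment is 1 transcript and the values are the authors' means without error. By the deposited type labels HNRNPD, with 967 reads in a retained intron transcript, and KHSRP, with 440, have the largest non-coding parts by read count. ELAVL1, CELF1 and the 3 ZFP36 genes have none by these labels. In the KHSRP transcript only 10 of 745 bases lie outside coding exons, against 79.0% of the bases of the HNRNPD transcript.

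TIA1 and TIAL1 encode close relatives that silence translation and gather in stress granules. By level per length TIA1 was 1.82 times TIAL1, at 310 against 171 reads per kb, and by summed read count 1.43 times, at 833 against 581. TIA1, on chromosome 2 from 70209444 to 70248660, had 8 listed transcripts, the most of the 9 genes, where the median gene had 2. TIA1-006 had a mean normalized read count of 438, TIA1-001 had 250, TIA1-002 had 51.6, the retained intron TIA1-015 had 41.7 and TIA1-013 had 19.8. The other 3 had 7.55 to 13.9. Exon 5 of TIA1, at chr2:70229059-70229091, has 33 bases and distinguishes a known pair of protein isoforms. TIA1-006 and TIA1-001 contain it and TIA1-002 does not, and their shares of the gene by read count were 52.5%, 30.0% and 6.19%.

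TIAL1, on chromosome 10 from 119571802 to 119597029, had 1 coding transcript, TIAL1-005, with a mean normalized read count of 378, and 3 retained intron transcripts with 170, 18.6 and 14.2. The largest of these, TIAL1-006, reached the level per length of the coding transcript, at 76.4 against 74.6 reads per kb. TIAL1-006 and TIAL1-008 cover the 329 bases of intron 10 of TIAL1-005 in full, and TIAL1-002 covers 92.4% of them. The non-coding share of TIAL1 was 34.9% by read count and 56.3% by level per length. Over all genes with a listed coding transcript the median non-coding share by read count was 1.20%, and HNRNPD and TIAL1 stood at percentiles 89.3 and 84.9 of these genes. KHSRP had 10.5% and TIA1 8.93% by read count, but 20.8% and 35.2% by level per length. By the deposited type labels the other 5 genes had none, whereas 53.0% of coding genes had some.

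CELF1, on chromosome 11 from 47465933 to 47565569, was carried by 1 transcript. CELF1-201, of 7666 bases, had a mean normalized read count of 1676, the highest of all 36 transcripts and 95.3% of the gene, and the other 3 had 14.8 to 44.8. CELF1 stood at rank 4 by summed read count, with 1759, and at rank 6 by level per length. By level per length it stood at rank 5 with coding transcripts alone. With the leading transcript alone it stood at rank 4, with 219 reads per kb. The 3′UTR of CELF1-201, 6198 bases, is the longest of the 9 and stands at percentile 96.1 of all genes, and its A and U share was 53.7% against a median of 60.2% for genes of like length. CELF2 was the only other CELF gene listed, with a level per length of 88.0 reads per kb against 254 for CELF1. CELF3, CELF4, CELF5 and CELF6 had no row.

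**Figure D4:**
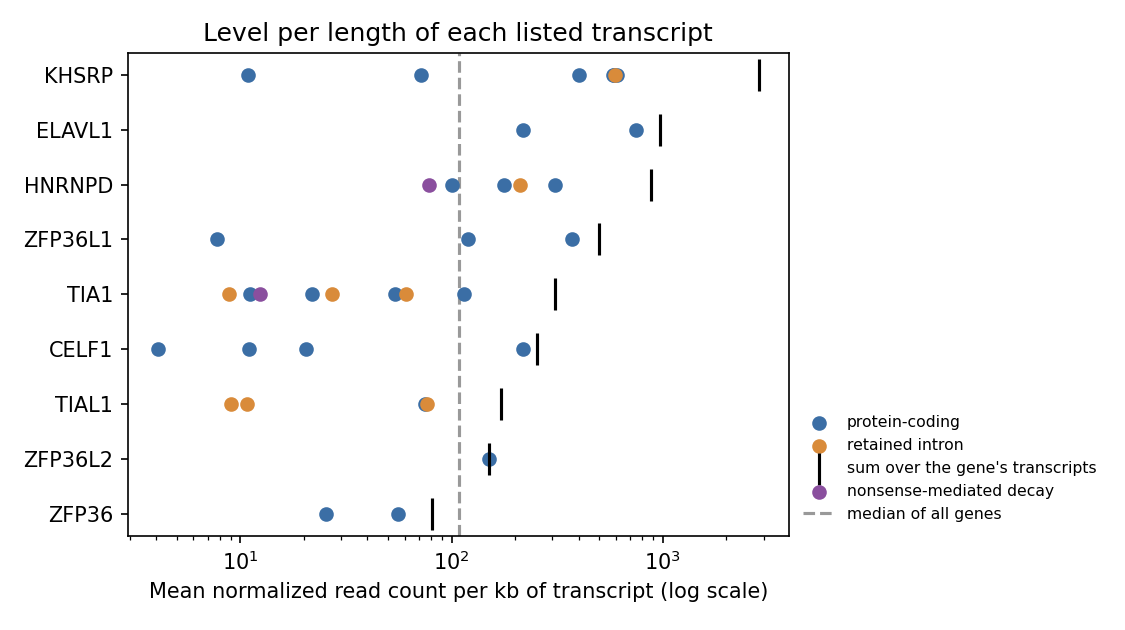
Level per length of each listed transcript, in mean normalized reads per kb on a log axis, with 1 point per transcript coloured by type, a black bar for the sum over the gene and a dashed line at the median of all genes. The short ELAVL1-002, at 748 reads per kb, is the highest single transcript, and the retained intron and coding transcripts of TIAL1 overlap near 75 reads per kb (76.4 and 74.6).

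A list of 28 genes that carry, modify or act with these proteins was set beside them, and 27 were listed. Their median level per length was 721 reads per kb, against 310 for the 9 binding proteins, and 26 lay above the median gene. The highest were YWHAZ with 2611, CNOT1 with 2554, YWHAB with 2483 and ANP32B with 2334 reads per kb. The level of CNOT1 is a sum over 11 listed transcripts of 493 to 8471 bases, of which the highest held 25.1%. Levels with the leading transcript alone are not given for the partner list, so these ranks and medians hold for summed levels only. YWHAZ and YWHAB encode 14-3-3 proteins that hold phosphorylated ZFP36 away from its partners, CNOT1 is the scaffold of the deadenylase complex that the ZFP36 family recruits, and ANP32B is a ligand of HuR linked to its export. ZFP36 itself, at 80.9 reads per kb, was below each of the 27. The lowest listed were EXOSC2, an exosome subunit, with 112 and XRN1, the 5′ to 3′ exonuclease, with 92.0 reads per kb. CHEK2, a kinase that phosphorylates HuR, had no row.

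The labelled cell line was checked with markers. The mesenchymal markers VIM, AXL, MSN, CAV1, CD44 and S100A4 were all listed, at percentiles 74.2 to 99.7 by level per length. Of 6 genes taken as low in this line, ESR1, PGR and CDH1 had no row and ERBB2 and EPCAM stood at percentiles 32.8 and 32.4, but KRT19 stood at 97.6. PTPRC, a leukocyte marker, had no row, PECAM1, of endothelium, stood at percentile 3.60 and COL1A1, of fibroblasts, at 30.8.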

How the data were processed

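The members and all gene lists were chosen with earlier results of these data known. RNA of MDA-MB-231 cells was sequenced from mRNA libraries, 2 per condition, grouped by the sample titles. The authors mapped reads with STAR to GENCODE release 24 transcripts (hg38), estimated reads per transcript with eXpress and normalized them with DESeq2; versions are not given in the sources used here. The unit used is this signal, a mean normalized count over libraries as the authors deposited it. Which libraries enter it is not stated, and the methods also name a 5 µM group, not used here. Transcripts under 7.34 are not listed. The table's other 3 value columns hold the authors' own comparison of KH-3 with DMSO (log2 fold change, p-value and q-value) and were not used, so no test was run. Without values per library, depth and counting error are unknown.

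Transcripts were joined to GENCODE release 44 by identifier without version. Of the 36 transcripts of the 9 genes, 35 were found, 25 with the length of the table; KHSRP-201 was not. Among the transcripts found, 20 had under 10% of their bases outside the other listed transcripts of the gene. Their read counts are estimates from shared bases. The 3′UTR starts after the stop codon. The motifs AUUUA and UAUUUAU, and also UGUUUGU, were counted on the sense strand with overlaps allowed, and printed sites were checked against the genome sequence. Every member was named, with up to 5 transcripts each, every listed paralog, and the 4 highest and 2 lowest of the partner list; KRT19, of the marker list, was singled out after its value was seen. The computations were checked on simulated tables. Python 3.11.15, numpy 2.4.6, pandas 2.3.3 and matplotlib 3.10.9 were used.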

Additional observations from a re-analysis of the deposited data

How the results depend on the processing

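Alternatives covered coding transcripts alone, a length reduced by 200 bases, a minimum read count of 20, the leading transcript alone, shares by read count per kb and the longest 3′UTR of each gene. The 3′UTR of the coding transcript with the highest level per length was added after the data were seen. A value was taken as moved beyond 1.5-fold. The ratio of the highest to the lowest gene by level per length, 35.2, was 10.9 with the leading transcript alone, since KHSRP is then given by KHSRP-201 only. Of the single-gene values, 19 moved and 107 did not. With the leading transcript alone ELAVL1 had 219 reads per kb and HNRNPD, led by a retained intron transcript, had 210. ZFP36L1, at 373, stood above both. With coding transcripts alone TIAL1 had 74.6 reads per kb, below ZFP36. With the longest 3′UTR, KHSRP had 1 AUUUA and 1 UGUUUGU. This 3′UTR has 1922 bases in the reference model of KHSRP-009, whereas the listed KHSRP-009 has 851 bases and cannot hold it. With the 3′UTR chosen by level per length, ELAVL1 had 0 UAUUUAU, 0 AUUUA and 1 UGUUUGU, HNRNPD had 0 AUUUA and 0 UGUUUGU, and 6 of the 9 genes held UAUUUAU against 7. Per kb of 3′UTR, UAUUUAU was densest in ZFP36, at 4.21, followed by ZFP36L1 with 1.60, ZFP36L2 with 1.56 and ELAVL1 with 1.02. No paired analysis was possible because the table has no value per library, and leaving out a library was not possible for the same reason.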

Other observations

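The GU-rich heptamer UGUUUGU, of the kind that CELF1 prefers, was counted in the same 3′UTRs and occurred in 28.6% of all genes. CELF1 had 3 copies, ELAVL1 2, and HNRNPD, TIA1 and TIAL1 1 each, while the 3 ZFP36 genes and KHSRP had 0. The longest 3′UTR of KHSRP, 1922 bases in the reference model of KHSRP-009, has 1. The listed KHSRP-009 has only 851 bases and cannot hold this 3′UTR, so this copy belongs to the reference model alone. Among 590 genes of like 3′UTR length, 69.2% held the heptamer and CELF1 stood at percentile 86.6. HNRNPD stood at percentile 81.8 and ELAVL1 at 79.1. The short ELAVL1-002, which lacks the AU-rich cluster, holds 1 copy. These are descriptions of reference sequence and were not tested.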
